A study of Mus musculus with 2 samples.

Results

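The SLC25 genes encode mitochondrial carriers, and their RNA was measured in embryonic mouse heart. All protein-coding genes of the GENCODE M21 annotation whose symbol starts with Slc25a were taken, and each was matched by gene identifier in the gene tables of both libraries. The rule gave 47 genes, all 47 of them matched, among 21461 nuclear protein-coding genes. The measurement was total RNA sequencing of heart at embryonic day 16.5, in 2 libraries of 1 group, biological replicates 1 and 2. Both came from healthy embryos of strain B6NCrl, with male and female hearts pooled; replicate 2 combined 41 embryos and the number is not stated for replicate 1. RNA of more than 200 nt was used, 10 ng went into each library, and ERCC spike-in RNAs were added. Both libraries carry the same donor identifier, the labels give no litter or dissection day, and with a single group no condition was compared. Spread between the libraries may therefore be partly technical.

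Carriers of this family move nucleotides, phosphate, carboxylates, amino acids, cofactors and metal ions across the inner mitochondrial membrane, which is otherwise closed to them. Each protein is built from repeats of a common unit of paired membrane helices, and each unit usually holds a short carrier signature. Heart muscle depends on the export of mitochondrial ATP in exchange for ADP, on phosphate import to make that ATP, and on carriers for fatty acids and reducing equivalents. A few members sit in the outer membrane or in peroxisomes, and for several the substrate is not known.

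The sequences below show what separates the genes and exons on which the results turn. Slc25a3, the phosphate carrier (chr10:91116574-91124059, minus strand, GRCm38, the same assembly as mm10), has 2 mutually exclusive coding exons, named here 3A for the upstream and 3B for the downstream one. Exon 3A lies at chr10:91122207-91122331 and has 125 bases, and exon 3B lies at chr10:91121922-91122043 and has 122 bases. Both are given on the coding strand, with capitals for bases that differ or have no partner in the alignment of the exons. Of 126 alignment columns, 80 held the same base, or 63.5%.
Slc25a3 exon 3A: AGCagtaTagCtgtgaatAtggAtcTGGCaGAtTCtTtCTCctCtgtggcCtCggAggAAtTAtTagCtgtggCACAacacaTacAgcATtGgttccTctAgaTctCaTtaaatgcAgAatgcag
Slc25a3 exon 3B: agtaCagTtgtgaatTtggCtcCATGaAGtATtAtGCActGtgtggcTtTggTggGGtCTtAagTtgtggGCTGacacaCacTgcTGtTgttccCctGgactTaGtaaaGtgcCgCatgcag

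The ADP/ATP carriers Slc25a4, Slc25a5 and Slc25a31 share a run of 3 arginines and 3 methionines that marks this subfamily. Its 18 bases are in capitals below, within the coding exon that holds them, at chr8:46208398-46208470 on the minus strand for Slc25a4, at chrX:36797804-36797876 on the plus strand for Slc25a5 and at chr3:40722695-40722751 on the plus strand for Slc25a31. They are printed to show how far the bases of these genes differ where the residues are shared.
Slc25a4: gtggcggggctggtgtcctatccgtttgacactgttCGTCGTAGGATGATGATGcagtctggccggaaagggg
Slc25a5: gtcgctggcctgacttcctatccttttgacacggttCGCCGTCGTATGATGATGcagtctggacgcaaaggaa
Slc25a31: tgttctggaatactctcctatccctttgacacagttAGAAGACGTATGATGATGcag

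Over their coding sequences, Slc25a4 and Slc25a5 were identical at 77.4% of aligned bases and 89.6% of residues. Their longest identical run was 20 bases. Slc25a4 and Slc25a31 were identical at 61.2% of bases and 66.5% of residues, with a longest run of 14 bases. The paralog pairs described below were set as genes of the same substrate or closest paralogs, and not all are close in sequence. Residue identity was lowest for Slc25a1 and Slc25a21, at 26.2%. Over these pairs, the longest identical run was 25 bases, between Slc25a34 and Slc25a35.

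The carrier signature was searched in the translated coding sequences as proline, any residue, aspartate or glutamate, any 2 residues, then lysine or arginine, with overlapping matches counted. It occurred in 3 copies in 27 members, in 2 copies in 12, in 1 copy in 5 and not at all in 3, which were Slc25a51, Slc25a46 and Slc25a53. Of 21077 nuclear protein-coding genes with a complete coding transcript, 2.49% held 3 or more copies and 7.44% held 2 or more. The members' coding sequences had a median of 318 residues. The shortest was Slc25a2 with 265 residues and 1 coding exon, and the longest was Slc25a12 with 677 residues and 18 coding exons. Slc25a12 and Slc25a13, the aspartate/glutamate carriers, are known for an added calcium-binding part.

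The libraries held 37160624 and 40360242 estimated counts, of which the members took 246270 and 258828. Levels are given as TPM, a share of all transcripts that is corrected for length and so allows genes to be set side by side. All 7 heart muscle markers were expressed, with a summed level of 25494 TPM in replicate 1 and 24883 TPM in replicate 2. Erythroid markers summed to 78199 and 66038 TPM, over 8 of 8 measured genes. Skeletal muscle markers summed to 2034 and 2182 TPM, of which Ckm, also a gene of heart muscle, made up 1849 and 1937 TPM. The others were lower in replicate 1, such as Tnnt3 with 4.31 and 13.56 TPM, Myh8 with 2.14 and 6.04 TPM and Mylpf with 12.3 and 22.2 TPM. Ventricular markers summed to 16065 and 12569 TPM and atrial markers to 8336 and 11463 TPM, lung markers to 933 and 101.8 TPM and thymus markers to 76.0 and 197 TPM, in replicates 1 and 2 in that order. Their part in the members' levels was not tested. In whole tissue, fewer cells of a type and less RNA per cell cannot be told apart.

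Of the 47 members, 40 reached 1 TPM in both libraries, or 85.1%, against a background of 59.1% of nuclear protein-coding genes. The median member had a mean of 10.3 TPM, and the median nuclear protein-coding gene 3.68 TPM. Among expressed genes alone the order was the other way, with 12.1 TPM for the members and 15.9 TPM for all. The family summed to 5771 TPM in replicate 1 and 5487 TPM in replicate 2. That was 0.704% of all nuclear protein-coding TPM in each library, from 0.219% of the nuclear protein-coding genes.

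The family's RNA was concentrated in a few genes. Slc25a4, Slc25a5 and Slc25a3 together held 77.5% of it in replicate 1 and 77.8% in replicate 2 (77.6% ± 0.181, SD, n = 2). The 42 members outside the 5 highest summed to 727 and 699 TPM in the 2 libraries, less than Slc25a3 alone. By mean level, 6 members stood at 100 TPM or more, 20 between 10 and 100 TPM, and 14 expressed members under 10 TPM.

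**Figure D1:**
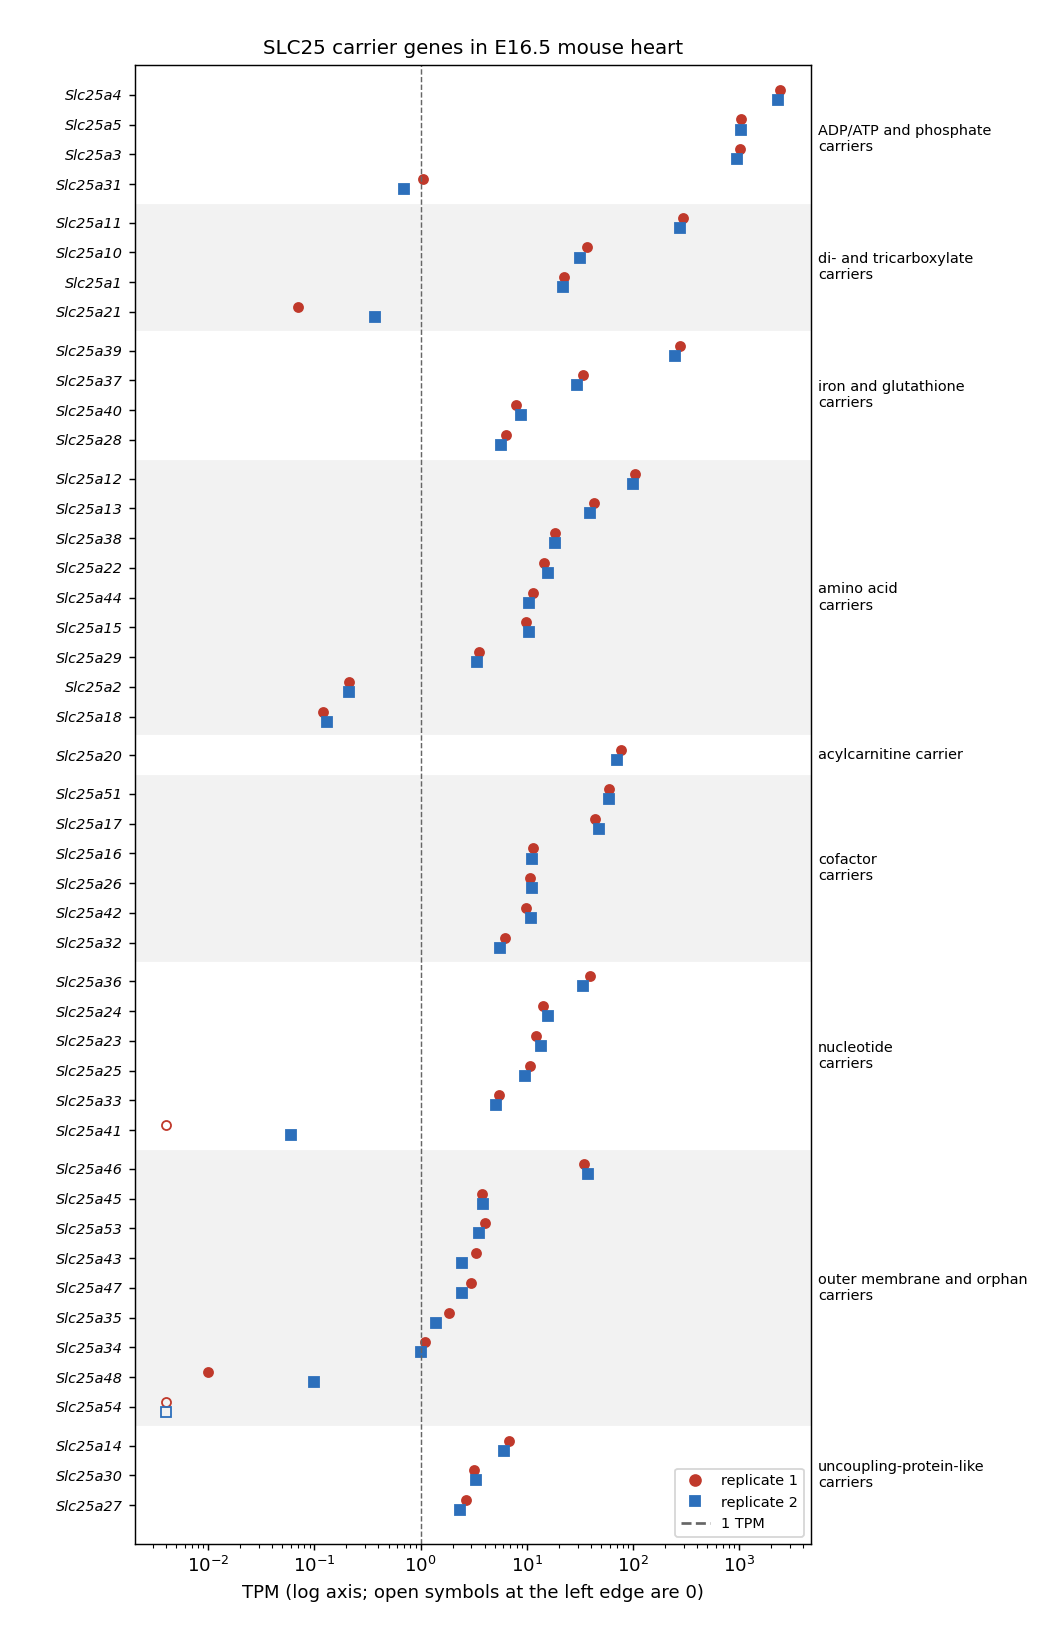
TPM of SLC25 genes on a log axis, grouped by role, with red circles for replicate 1 and blue squares for replicate 2; the dashed line is 1 TPM and open symbols at the left edge are listed at 0. Slc25a4, Slc25a5 and Slc25a3 stand apart at the top, most genes lie at or right of the line in both libraries, and the libraries lie close together for all but the lowest genes.

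Neighbours in the order of levels were told apart only where both libraries gave the same order and the authors' credibility intervals, which cover read sampling and assignment within 1 library, overlapped in neither. This held for 10 of 46 neighbouring pairs, and the others were not told apart. Slc25a4 stood above Slc25a5, and Slc25a5 and Slc25a3 were not told apart. From Slc25a3 down to Slc25a51 each step was told apart, in the order Slc25a3, Slc25a11, Slc25a39, Slc25a12, Slc25a20 and Slc25a51. The place of Slc25a12 holds for whole genes, since on coding transcripts alone it had 7.69 TPM in replicate 1 and 6.69 TPM in replicate 2, below Slc25a20 and Slc25a51 in both. Below that, Slc25a37 stood above Slc25a1, Slc25a1 above Slc25a38 and Slc25a15 above Slc25a40.

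The adenine nucleotide and phosphate carriers came first. Slc25a4, the ADP/ATP carrier known from heart and skeletal muscle (chr8:46206797-46211284, minus strand), had 2437.95 TPM in replicate 1 and 2298.77 TPM in replicate 2. Slc25a5, the ADP/ATP carrier of proliferating and many other cells (chrX:36795651-36798807, plus strand), had 1026.36 and 1025.71 TPM. Both libraries thus placed Slc25a4 above Slc25a5, by a log2 ratio of 1.21 ± 0.06 (SD, n = 2), or 2.31-fold. Slc25a31, the ADP/ATP carrier known from male germ cells (chr3:40708855-40726096, plus strand), had 1.05 and 0.69 TPM, from 43 and 31 estimated counts. Slc25a4 was higher by 11.28 ± 0.32 on the log2 scale, and none of 5 germ cell markers reached 1 TPM in both libraries. Fold changes between genes are on the log2 scale of TPM plus 0.1, which understates differences for genes near that value.

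The level of Slc25a4 depended on which of its transcripts were counted. Its coding transcript, Slc25a4-201, had 1752 TPM in replicate 1 and 1620 TPM in replicate 2. A transcript annotated as a retained intron had 686 and 678 TPM, which was 28.1% and 29.5% of the gene. On coding transcripts alone, an alternative added after the data were seen, Slc25a4 was 1.66-fold above Slc25a5, a log2 ratio of 0.73 ± 0.07. The deposited TPM of Slc25a4 also lies above its own credibility interval, which spans 2369 to 2403 TPM in replicate 1. The same holds in both libraries for 3 members, Slc25a4, Slc25a5 and Slc25a3. In at least 1 library 6 members lie outside their interval, the others being Slc25a22, Slc25a41 and Slc25a54, which lie below it. Slc25a22 and Slc25a54 do so in both libraries. For Slc25a22, 14.64 TPM lies under a lower bound of 15.3 in replicate 1, and 15.93 TPM under 16.3 in replicate 2. Such gaps bear on the rule for telling genes apart.

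Slc25a3 had 1009.12 TPM in replicate 1 and 942.90 TPM in replicate 2, close to Slc25a5. Its transcripts divided unevenly between the exons printed above. The transcript with exon 3A, Slc25a3-206, had 758 TPM in replicate 1 and 707 TPM in replicate 2. The transcripts with exon 3B, Slc25a3-201 and Slc25a3-203, summed to 199 and 181 TPM. Exon 3A therefore held 75.1% ± 0.0919 of the gene's TPM and exon 3B 19.4% ± 0.354 (SD, n = 2). The ratio of 3A to 3B was 3.82 in replicate 1 and 3.91 in replicate 2, a log2 ratio of 1.95 ± 0.02. In human and cattle, the 3A form is known from heart and skeletal muscle and the 3B form from most tissues. The transcripts also differ at their ends, so the shares rest on more than the exon itself.

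**Figure D2:**
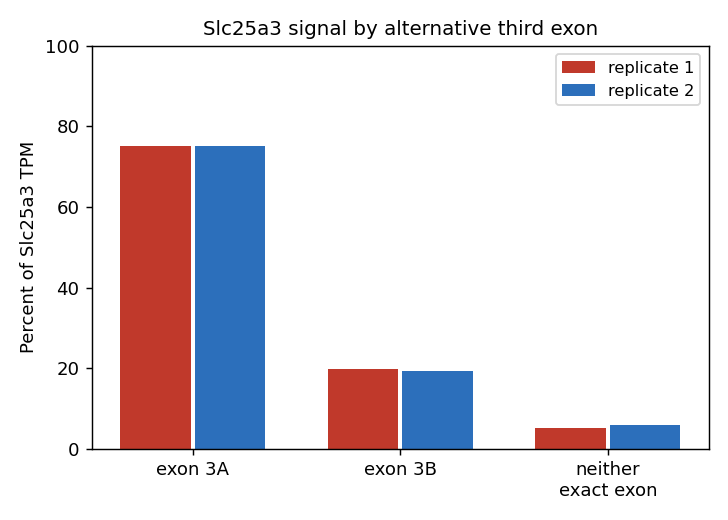
Percent of Slc25a3 TPM on transcripts with exon 3A, with exon 3B and with neither exact exon, as bars for replicate 1 (red) and replicate 2 (blue). In both libraries 3A held 75.2% and 75.0%, 3B held 19.7% and 19.2%, and the other transcripts held 5.16% and 5.77%.

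Carriers of di- and tricarboxylates held 6.06% of the family's TPM. Slc25a11, the 2-oxoglutarate/malate carrier of the malate-aspartate shuttle (chr11:70644196-70647479, minus strand), had 293.56 and 275.26 TPM in replicates 1 and 2. Slc25a10, the dicarboxylate carrier, had 36.69 and 31.49 TPM, so Slc25a11 was 8.34-fold higher (log2 ratio 3.06 ± 0.09). Exons of Slc25a11 overlap those of Rnf167 on the other strand, which had 67.7 and 64.0 TPM, and whether reads were assigned by strand is not given in the sources used here. Slc25a1, the citrate carrier that feeds cytosolic acetyl-CoA synthesis, had 22.58 and 22.02 TPM. Slc25a21, the oxodicarboxylate carrier, had 0.07 and 0.37 TPM, from 4.06 and 16.1 estimated counts. Its exons overlap Pax9 on the other strand, which had 1.31 and 1.87 TPM. The log2 ratio of Slc25a1 to Slc25a21 was 6.31 ± 1.06. Of the 19 paralog pairs examined, this ratio had the widest spread between the libraries.

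The other carrier of the malate-aspartate shuttle exchanges aspartate for glutamate and exists in a pair of forms. Slc25a12, the form known from muscle and brain (chr2:71271063-71367749, minus strand), had 104.86 TPM in replicate 1 and 99.73 TPM in replicate 2. Slc25a13, the form known from liver (chr6:6041218-6217173, minus strand), had 43.16 and 39.62 TPM. Over whole genes Slc25a12 was 2.47-fold above Slc25a13 (log2 ratio 1.30 ± 0.04). The transcripts gave another picture. A transcript of Slc25a12 annotated as subject to nonsense-mediated decay, Slc25a12-207 with 2392 nt, held 69.2% and 71.4% of the gene's TPM. The coding transcript in the tables, Slc25a12-206 with 6351 nt, held 7.33% and 6.71%. On coding transcripts alone Slc25a12 had 7.69 and 6.69 TPM and Slc25a13 had 43.2 and 39.3 TPM, and the log2 ratio reversed to -2.51 ± 0.04. The direction between these paralogs therefore depends on how reads were divided among the transcripts of Slc25a12, which was not tested.

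The enzymes that work with these carriers were abundant. Mdh1, the cytosolic malate dehydrogenase, had 1713 TPM in replicate 1 and 1586 TPM in replicate 2, and Mdh2, the mitochondrial one, had 1096 and 1047 TPM. Got1, the cytosolic aspartate aminotransferase, had 226 and 218 TPM, and Got2, the mitochondrial one, had 395 and 383 TPM. All 4 were above Slc25a12 in both libraries, and Slc25a11 stood between the aminotransferases.

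Iron and glutathione carriers held 5.45% of the family's TPM, most of it in 1 gene. Slc25a39, a glutathione carrier of the inner membrane, had 276.71 and 245.42 TPM in replicates 1 and 2. Its paralog Slc25a40 had 7.97 and 8.74 TPM, and Slc25a39 was higher by 4.95 ± 0.22 on the log2 scale. Slc25a37, mitoferrin 1, which supplies iron in developing red cells, had 34.08 and 29.48 TPM. Slc25a28, mitoferrin 2, which supplies it in other cells, had 6.38 and 5.67 TPM, so Slc25a37 was 5.20-fold higher (log2 ratio 2.38 ± 0.03). Alas2, the heme synthesis enzyme of red cells, had 243 and 221 TPM in the same libraries, and Alas1, its form in other tissues, had 110 and 105 TPM. The erythroid marker sum given above was also the larger in replicate 1, and the part of red cells in the levels of Slc25a37 and Slc25a39 was not tested. Of 8 genes for iron-sulfur cluster and heme synthesis all 8 were expressed, with Iscu, the cluster scaffold, at 98.2 and 108 TPM.

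Slc25a20, the carnitine/acylcarnitine carrier that brings fatty acids in for oxidation, had 76.33 TPM in replicate 1 and 69.98 TPM in replicate 2. Its paralog Slc25a29, a carrier of basic amino acids, had 3.53 and 3.38 TPM, so Slc25a20 was 20.6-fold higher (log2 ratio 4.36 ± 0.05). The enzymes on either side of this carrier were expressed too. Cpt1b, the outer membrane carnitine palmitoyltransferase of muscle, had 203 and 192 TPM, and Cpt1a, the form of liver and many tissues, had 29.6 and 26.1 TPM. Cpt2, which acts inside the inner membrane, had 52.0 and 54.6 TPM, and Crat, the carnitine acetyltransferase, had 140 and 131 TPM. Slc25a20 was thus above Cpt2 and below Cpt1b in both libraries.

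Amino acid carriers held 3.59% of the family's TPM, chiefly in the aspartate/glutamate pair. Slc25a38, the glycine carrier of heme synthesis, had 18.31 and 18.23 TPM. Slc25a44, a carrier of branched-chain amino acids, had 11.42 and 10.54 TPM in replicates 1 and 2. Of the glutamate carriers, Slc25a22 had 14.64 and 15.93 TPM and Slc25a18 had 0.12 and 0.13 TPM, from 4 and 5 counts, a log2 ratio of 6.09 ± 0.04, or 5.44 ± 0.03 on coding transcripts alone. Exons of Slc25a18 overlap Atp6v1e1 on the other strand, which had 122 and 123 TPM. Of the ornithine carriers of the urea cycle, Slc25a15 had 9.84 and 10.37 TPM and Slc25a2 had 0.21 TPM in each, a log2 ratio of 5.04 ± 0.05. In both pairs the lower gene stayed under 1 TPM in both libraries.

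All 7 cofactor carriers were expressed. Slc25a51, the NAD carrier, had 58.73 TPM in replicate 1 and 59.74 TPM in replicate 2. Its paralog Slc25a53, with no known substrate, had 4.05 and 3.53 TPM, a log2 ratio of 3.93 ± 0.15. For Slc25a53 only 1.5% and 1.42% of this was on coding transcripts, or 0.06 and 0.05 TPM. On those alone the log2 ratio was 8.57 ± 0.08. Both values of Slc25a53 are under the 0.1 TPM added for ratios, so the size and spread of this ratio depend on that value. Slc25a17, which serves peroxisomes, had 44.02 and 47.68 TPM. Slc25a42, a coenzyme A carrier, had 9.74 and 10.91 TPM, and Slc25a16, also linked to coenzyme A, had 11.51 and 11.12 TPM. These paralogs were not told apart, with a log2 ratio of -0.13 ± 0.15. Slc25a26, which imports S-adenosylmethionine, had 10.67 and 11.14 TPM, and Slc25a32, a carrier of flavin and folate, had 6.21 and 5.6 TPM.

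Nucleotide carriers other than the ADP/ATP group held 1.42%. For pyrimidine nucleotides, Slc25a33 had 5.44 and 5.17 TPM and Slc25a36 had 39.30 and 33.84 TPM. Slc25a33 was lower, by a log2 ratio of -2.76 ± 0.10, or 6.77-fold. The calcium-regulated ATP-Mg/phosphate carriers lay close together. Slc25a24 had 14.25 and 15.71 TPM, Slc25a25 had 10.80 and 9.70 TPM, and Slc25a23 had 12.29 and 13.50 TPM. Slc25a24 was not told apart from Slc25a25 (log2 ratio 0.54 ± 0.21) or from Slc25a23 (log2 ratio 0.21 ± 0.004). The fourth gene of that group, Slc25a41, had 0 counts in replicate 1, where 3 counts would be 0.102 TPM and the interval reaches 0.159 TPM. In replicate 2 Slc25a41 had 2 counts or 0.06 TPM.

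Uncoupling-protein-like carriers were low and held 0.217%. Slc25a14 had 6.85 and 6.07 TPM and Slc25a30 had 3.19 and 3.29 TPM, a log2 ratio of 0.97 ± 0.15. Slc25a27, known from neurons, had 2.68 and 2.37 TPM. Family members that carry other symbols stand outside the rule and spanned a wider range. Ucp2, an uncoupling protein of many tissues, had 143 TPM in replicate 1 and 177 TPM in replicate 2. Ucp1, the heat-producing uncoupling protein of brown fat, had 0 counts in both libraries, which allows up to 0.0727 and 0.0655 TPM, and Ucp3, the muscle form, had 0.21 and 0.24 TPM. Mtch1 and Mtch2, outer membrane proteins of the family, had 186 and 150 TPM and 224 and 205 TPM.

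The remaining members are of the outer membrane or have no settled substrate, and they held 0.924%. Slc25a46, an outer membrane protein of mitochondrial shape, had 34.61 and 37.47 TPM and was the only one of these 9 above 10 TPM. Slc25a45 had 3.80 and 3.87 TPM, Slc25a47, known from liver, had 2.98 and 2.44 TPM, and Slc25a43 had 3.29 and 2.47 TPM. Slc25a47 was not told apart from Slc25a45, with a log2 ratio of -0.49 ± 0.21. Slc25a48 had 1 and 10 counts, or 0.01 and 0.10 TPM, and was lower than Slc25a45 by a log2 ratio of -4.73 ± 0.59. Slc25a34 had 1.09 and 1.00 TPM and Slc25a35 had 1.83 and 1.38 TPM, and these were not told apart (log2 ratio -0.56 ± 0.19). Exons of Slc25a35 overlap Rangrf on the other strand, which had 70.7 and 63.5 TPM. Slc25a54 had no count in either library, where 3 counts would be 0.0750 and 0.0676 TPM. Its intervals reach higher, to 0.118 and 0.107 TPM.

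Over the 19 paralog pairs, 14 were called different and 5 were not told apart. A pair was called different if the 2 libraries ranked its genes alike, the mean log2 ratio was above 2 SD and the credibility intervals were separate in each library. No p-value is given, since an exact two-sided sign-flip test over 2 libraries cannot go below p = 0.5. In 12 of the 14 pairs the gene named first was higher, and in Slc25a33 over Slc25a36 and Slc25a48 over Slc25a45 the second was. On coding transcripts alone, where Slc25a12 over Slc25a13 turned round, the first gene was higher in 11 of these 14 and the second in 3. Which gene is named first was set by choice, so these tallies describe the listing only. The smallest called ratio was that of Slc25a14 over Slc25a30.

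**Figure D3:**
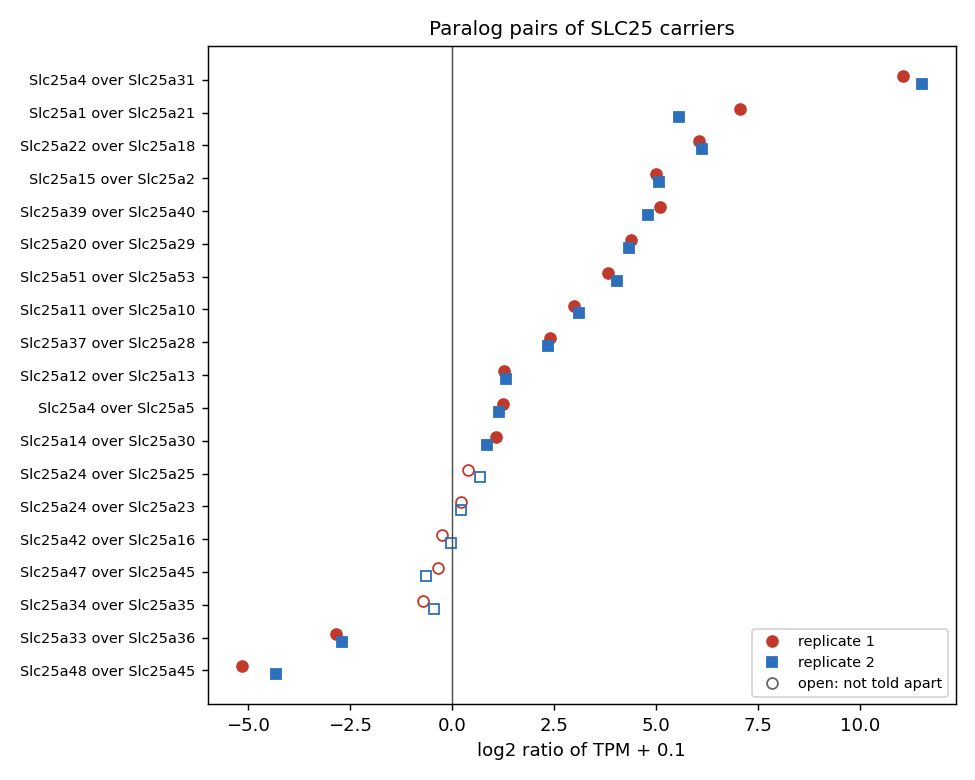
log2 ratio of TPM plus 0.1, first gene over second, for 19 paralog pairs, with red circles for replicate 1, blue squares for replicate 2 and open symbols for pairs not told apart. The plotted ratios ran between -5.15 for Slc25a48 over Slc25a45 in replicate 1 and 11.51 for Slc25a4 over Slc25a31 in replicate 2, and the 5 open pairs lie nearest the zero line.

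The split between coding and other transcripts was taken for all expressed members. Of the 40, 11 had a single transcript in the tables and 29 had several. At least 90% of the TPM lay on transcripts annotated as protein-coding in 28 of 40 members, close to the background of 67.6% of expressed nuclear protein-coding genes. In 10 members the share was between 50% and 90%. It was under 50% in 2 members, Slc25a12 and Slc25a53, against a background of 7.38%. The median share was 97.9% for the members and 98.5% for expressed nuclear protein-coding genes. Slc25a35 and Slc25a14 differed most between the libraries, with 65.5% and 100% of TPM on coding transcripts for Slc25a35 in replicates 1 and 2, and 65.3% and 88.0% for Slc25a14. Few estimated counts lie behind this, such as 9.32 and 0 on the other-type transcript Slc25a35-203 and 32.07 and 10.3 on Slc25a14-207.

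**Figure D4:**
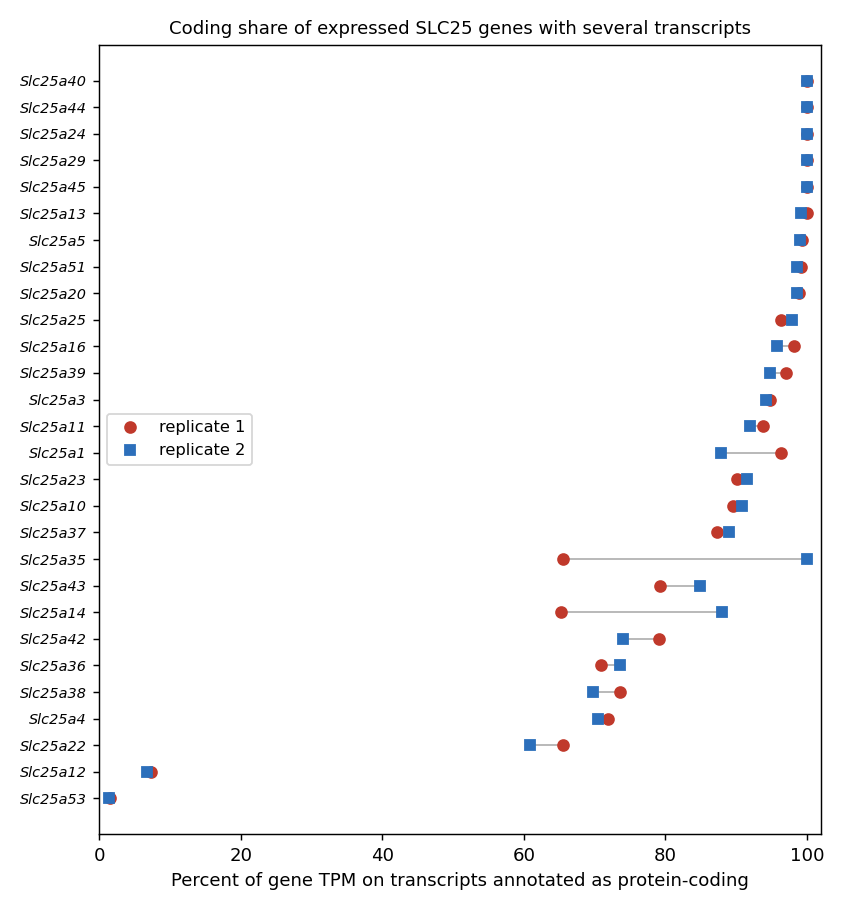
Percent of each gene's TPM on transcripts annotated as protein-coding, for expressed members with several transcripts, with red circles for replicate 1 and blue squares for replicate 2. Slc25a12 and Slc25a53 lie under 10%, Slc25a4 lies at 71.9% and 70.5%, and most members lie above 90%.

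The libraries differed little in the members. Between replicate 1 and replicate 2, none of the 40 members that averaged 1 TPM or more was more than 1.5-fold apart, against a background of 7.38% of 12974 nuclear protein-coding genes. The ratios of replicate 1 over replicate 2 ran between -0.16 and 0.40 on the log2 scale, and 37 of the 40 were within 1.2-fold, against 74.3% of those genes. Slc25a43, with 3.29 and 2.47 TPM, had the largest ratio. In 28 of 40 members replicate 1 was higher, against a background of 61.9%, and the median log2 ratio was 0.09 for the members and 0.06 for all. With library sizes scaled by TMM or by size factors that median was 0.04 for the members and 0.00 for all, with 25 of 40 members higher in replicate 1. Without the limit on the mean, 3 members of few counts passed 1.5-fold, namely Slc25a21, Slc25a48 and Slc25a41, all lower in replicate 1.

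**Figure D5:**
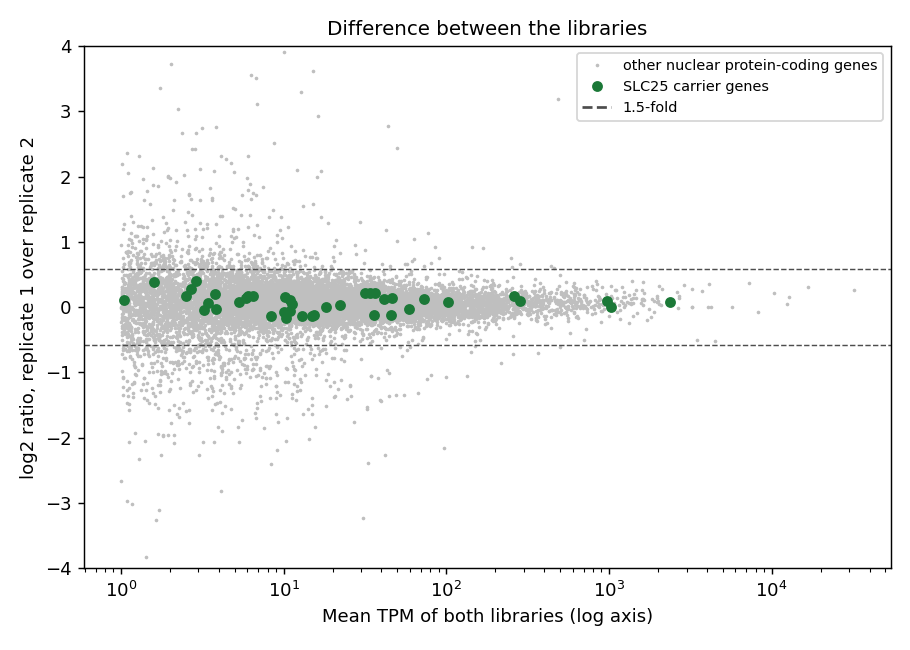
log2 ratio of TPM plus 0.1, replicate 1 over replicate 2, against mean TPM on a log axis, with green circles for the 40 SLC25 genes and grey dots for other nuclear protein-coding genes averaging 1 TPM or more; 9 genes lie outside the axis. Every green circle lies between the dashed 1.5-fold lines.

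Some members lie next to each other in the genome with no other protein-coding gene between them, and their levels differed or not by pair. Slc25a29 and Slc25a47 on chromosome 12 are 163 bases apart, at chr12:108825873-108835883 and chr12:108836046-108856815, and had like levels of 3.53 and 2.98 TPM in replicate 1 and 3.38 and 2.44 TPM in replicate 2. Slc25a43, at chrX:36743659-36777202, lies 18449 bases from Slc25a5, and its level was far lower in both libraries. Slc25a41 and Slc25a54, with at most 2 counts in a library, each lie beside an expressed ATP-Mg/phosphate carrier, Slc25a41 at 2057 bases from Slc25a23 on chromosome 17 and Slc25a54 at 6462 bases from Slc25a24 on chromosome 3. For 14 members the exons overlap those of another gene, 12 of them on the other strand. The same share was not taken over all nuclear protein-coding genes.

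Most genes listed as partners of the carriers were expressed. Over 8 lists of 50 genes, which include family members under other symbols, 48 reached 1 TPM in both libraries. Ucp1 and Ucp3 did not. The background was 59.1% of nuclear protein-coding genes. The lists were chosen with earlier results of these data known, so the count is not a test of the partners. All 12 genes for the import of carriers into the inner membrane were expressed, led by Tomm22, a receptor of the outer membrane, at 204 TPM in replicate 1 and 210 TPM in replicate 2. Timm8b, a small chaperone between the membranes, had 199 and 203 TPM, and Timm13, of the same kind, had 134 and 118 TPM. The outer membrane channels Vdac1, Vdac2 and Vdac3 had 453, 449 and 403 TPM in replicate 1 and 494, 417 and 375 TPM in replicate 2. Mpc1 and Mpc2, which form the pyruvate carrier of another family, had 280 and 294 TPM in replicate 1 and 281 and 273 TPM in replicate 2. Atp5b, a catalytic subunit of ATP synthase, had 5683 and 5703 TPM, more than Slc25a4 in both libraries, while Atp5a1 had 2129 and 2076 TPM and Atp5c1 had 1251 and 1193 TPM. Slc25a4 thus stood between Atp5b and Atp5a1 over whole genes. Its coding transcript alone lay below the whole-gene levels of both. That sets unlike measures side by side, since coding transcripts of Atp5b and Atp5a1 were not taken alone.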

How the data were processed

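Heart RNA of 2 libraries, 1 pool each, was analysed from the deposited gene and transcript tables. Per the file headers and deposited notes, the authors quantified reads on mm10 with annotation M4, without pooling. For aligner, quantifier and strand setting, nothing was given in the sources used here. The tables hold estimated counts, not normalized, and TPM, which the authors computed over all rows, spike-ins included. The deposited FPKM served as an alternative. Per the file headers, the authors also gave each transcript's percent of gene TPM, and bounds of a credibility interval of TPM, a signal on the same scale whose level is not stated.

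Gene names, types and coordinates came from GENCODE M21, matched by identifier without version. Of 211 member transcripts in the tables, 208 matched and 90.9% of these had the same length. Sequences came from GENCODE M21 transcripts. Spike-ins took 1.62% of counts in replicate 1 and 3.41% in replicate 2. For 31 members estimated counts were whole in both libraries (within 0.005); for the other 16 they were not, in at least 1 library. An upper limit for 0 counts is 3 counts at the gene's length and covers counting error only. The intervals add assignment within 1 library and can reach higher. Neither allows for reads that are not independent molecules.

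The members, pairs and lists were chosen with earlier results of these data known. Values in each library are given for the 12 highest members, all in a paralog pair, those apart between libraries and those under 0.1 TPM, except 1 member whose values are not reported here. From partner lists the 3 highest genes, and all genes of lists of up to 6, are named. Levels, shares and log2 ratios of TPM + 0.1 were computed with Python 3.11.15 and pandas 2.3.3, and alignments with Biopython 1.88. TMM factors of edgeR 4.0.16 and size factors of DESeq2 1.42.0 on rounded counts were alternatives for scaling only. With 2 libraries of 1 group, no test of conditions was possible.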

Additional observations from a re-analysis of the deposited data

Results flagged for a closer look

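Slc25a5-ps, an annotated processed pseudogene of Slc25a5, is outside the 47 genes and had 1.12 estimated counts in replicate 1 and 4.30 in replicate 2, where the second value is above the limit of 3 counts used for a count of 0. It is listed here as a signal outside the main measurement, with 0.06 TPM in replicate 1 and 0.20 TPM in replicate 2. Its counts are not whole, so reads were divided between it and other rows.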

How the results depend on the processing

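The number of expressed members was 41, 38 and 31 at 0.5, 2 and 5 TPM and 39 on posterior means, against 40 at 1 TPM. The family held 0.563% of the TPM of all table rows, 0.721% of estimated counts and 0.701% of posterior mean TPM, against 0.704%. Exon 3A of Slc25a3 held 74.9% on posterior means, 69.8% by counts without length correction and 79.4% of coding transcripts alone. Without a limit on the mean level, 3 members were more than 1.5-fold apart between libraries, against 0. On coding transcripts alone, chosen after seeing the data and without the intervals, 18 of 19 pairs were called different, and the log2 ratio of Slc25a12 over Slc25a13 reversed to -2.51. No other pair called different reversed under the alternatives run, and the count of such pairs was 14 with other pseudocounts, posterior means or counts without length correction. Sizes moved more, with 12 of 19 ratios changed beyond their spread at a pseudocount of 1 and 3 at 0.01. The number was 5 on posterior means and 14 by counts. On coding transcripts alone 10 moved besides the 1 that reversed, with 0.58 for Slc25a14 over Slc25a30 and -2.29 for Slc25a33 over Slc25a36. Among called pairs, a pseudocount of 1 gave log2 ratios of 3.85 for Slc25a22 over Slc25a18, 3.20 for Slc25a15 over Slc25a2, 4.27 for Slc25a1 over Slc25a21, 10.31 for Slc25a4 over Slc25a31 and -2.20 for Slc25a48 over Slc25a45, and 0.01 gave -6.36 for that last pair and 6.82 for Slc25a22 over Slc25a18. Counts gave 7.5 for Slc25a22 over Slc25a18, 6.90 for Slc25a15 over Slc25a2, 3.98 for Slc25a37 over Slc25a28, 4.19 for Slc25a39 over Slc25a40, -3.80 for Slc25a33 over Slc25a36, -5.91 for Slc25a48 over Slc25a45 and 5.23 for Slc25a51 over Slc25a53; they are not corrected for length. With 1 library left out, expressed members numbered 40 to 41, the family share was 0.7039% in each case, exon 3A held 75.0% to 75.2%, and 15 to 16 pairs were called different, on intervals alone since no SD exists. No paired analysis was possible because the study has 1 group. Depth limits the 7 members that did not reach 1 TPM in both libraries. Their values rest on at most 43 estimated counts in a library, the highest being those of Slc25a31.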
